A study of Mus musculus with 9 samples.

Results

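Germline genes that are known to be kept silent by DNA methylation outside germ cells were followed in mouse embryonic stem cell (mESC) lines. The 10 genes are Hormad1, Sycp1, Sycp3, Dazl, Ddx4, Mael, Asz1, Stk31, Brdt and Tex101. They were found by symbol: every transcript cluster (a set of array probes summarised to 1 value) whose annotation gives 1 of these symbols alone was taken. This gave 11 clusters of the 23410 clusters with an assigned gene, because Hormad1 has 2, named here by their array identifiers 10494281 and 10536427. Total RNA of 9 C57BL/6 lines labelled female was hybridised to Affymetrix Mouse Gene ST arrays, with 1 array per line. The 3 mESCWM lines (WM1, WM2 and WM3) were derived from embryos conceived by in vitro fertilization (IVF) and grown to blastocysts in Whitten's medium with 20% O2, the suboptimal condition. The 3 mESCKAA lines (KAA1, KAA2 and KAA3) were derived after IVF and growth in KSOM medium at 5% O2 with amino acids added, the optimal condition. For the 3 mESCFB lines (FB1, FB2 and FB3), blastocysts conceived by natural mating were flushed from the uterus. Each line grew from a single blastocyst, first on feeder fibroblasts and later on gelatin, in the same serum medium for all groups, with leukaemia inhibitory factor and, at derivation, inhibitors of MEK and GSK3, and was collected at the eighth passage. The comparisons address whether the conception and culture of the embryo left a trace in the lines. All levels below are log2 levels after normalization between arrays, so a difference of 1 is a doubling. Probes differ between clusters, so levels of different clusters are compared only roughly, with the background and with the median of all clusters.

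Germline genes of this kind have CpG-rich promoters that receive DNA methylation around implantation and lose it again in primordial germ cells. In embryonic stem cells they are also held down by the polycomb complex PRC1.6, which is brought to promoters by the E-box factors MGA and MAX and by the E2F6 and DP1 factors. Female mESC with both X chromosomes active, and cells grown with inhibitors of MEK and GSK3, are known for low DNA methylation, a state in which some germline genes are transcribed. DNA methylation was not measured in these lines, so the name of the gene group rests on background knowledge.

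The promoters of the 10 genes were rich in CpG, and most held an E-box. Windows of the 250 bases before the start of each gene were taken from RefSeq (assembly GRCm38.p6), and all 10 genes matched. Each window was searched on both strands for the E-box CACGTG, a palindrome that MGA and MAX bind, and for GCGGGA, the core of an E2F6 element, motifs that do not overlap in these windows. CACGTG was present in 7 of the 10 genes (Mael, Hormad1, Sycp1, Sycp3, Ddx4, Stk31 and Brdt), against 6.02% of the 32851 windows of all genes. GCGGGA was present in 4 genes (Mael, Hormad1, Sycp3 and Ddx4), against 16.9% of all windows, and these same 4 genes held both motifs, against 1.45%. Dazl, Tex101 and Asz1 held neither. The members had 12 to 31 CG dinucleotides per window, against a median of 6 over all windows, and the ratio of observed to expected CpG was 0.6 or more in 10 of 10 genes, against 34% of windows. Both motifs hold a CG, and the shares come from windows of any CpG content, so the part of CpG richness in these counts was not tested. The shares count windows (32851 for 27025 genes), whereas the members were counted by gene. A match is a string of letters, and binding or methylation at these sites was not measured. The 4 promoters with both motifs are shown first, and Dazl, CpG-rich without either motif, last, 5′ to 3′ on the strand of the gene with the motifs in capitals (TCCCGC is GCGGGA on the other strand).
Hormad1 (chr3:95559427-95559676, plus strand): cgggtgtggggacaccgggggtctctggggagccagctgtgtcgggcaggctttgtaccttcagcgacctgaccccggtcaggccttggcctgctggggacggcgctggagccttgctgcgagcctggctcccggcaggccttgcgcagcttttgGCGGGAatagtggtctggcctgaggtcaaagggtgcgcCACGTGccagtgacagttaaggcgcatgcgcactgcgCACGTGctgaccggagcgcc
Sycp3 (chr10:88459337-88459586, plus strand): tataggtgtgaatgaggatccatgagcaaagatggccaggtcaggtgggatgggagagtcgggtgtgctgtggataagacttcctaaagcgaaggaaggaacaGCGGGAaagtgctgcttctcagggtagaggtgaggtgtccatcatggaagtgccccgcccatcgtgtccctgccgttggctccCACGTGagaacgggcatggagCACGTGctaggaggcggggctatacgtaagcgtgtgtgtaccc
Mael (chr1:166238745-166238994, minus strand): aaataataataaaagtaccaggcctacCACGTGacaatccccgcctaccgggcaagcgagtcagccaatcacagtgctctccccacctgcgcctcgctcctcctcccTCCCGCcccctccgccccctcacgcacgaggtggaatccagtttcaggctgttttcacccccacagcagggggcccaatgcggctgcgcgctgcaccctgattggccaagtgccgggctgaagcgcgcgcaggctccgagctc
Ddx4 (chr13:112652311-112652560, minus strand): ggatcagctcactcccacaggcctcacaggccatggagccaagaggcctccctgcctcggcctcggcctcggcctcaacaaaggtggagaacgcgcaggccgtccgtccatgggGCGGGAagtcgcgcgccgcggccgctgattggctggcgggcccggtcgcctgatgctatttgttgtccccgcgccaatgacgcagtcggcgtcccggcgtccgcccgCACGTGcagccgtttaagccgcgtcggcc
Dazl (chr17:50293621-50293870, minus strand): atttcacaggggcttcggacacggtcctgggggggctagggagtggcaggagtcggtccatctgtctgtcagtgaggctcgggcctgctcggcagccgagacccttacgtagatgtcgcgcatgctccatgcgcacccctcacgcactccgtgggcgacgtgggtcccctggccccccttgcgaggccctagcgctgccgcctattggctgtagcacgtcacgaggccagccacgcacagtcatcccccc

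The arrays hold no detection call, so the background was read from genes that embryonic stem cells should not transcribe. Over 1035 clusters of olfactory receptor genes, the mean level had a median of 2.12, a 95th percentile of 3.63 and a 99th percentile of 4.43. Above the 95th percentile lay 7 member clusters, with means over the 9 lines of 6.38 for Mael, 6.36 for Ddx4, 6.03 for Sycp3, 5.72 and 4.41 for the Hormad1 clusters 10494281 and 10536427, 4.36 for Tex101 and 4.08 for Dazl. The other 4 clusters, Brdt (3.58), Stk31 (3.41), Sycp1 (3.11) and Asz1 (1.98), lay within the range of the olfactory receptor genes, so a level there cannot be told from background. Mael, Ddx4, Sycp3 and the Hormad1 cluster 10494281 also lay above the 99th percentile. The means of the Hormad1 cluster 10536427, Tex101 and Dazl lay below it. Because probes differ between clusters, these percentiles are only a rough guide to the background of a given cluster.

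**Figure D1:**
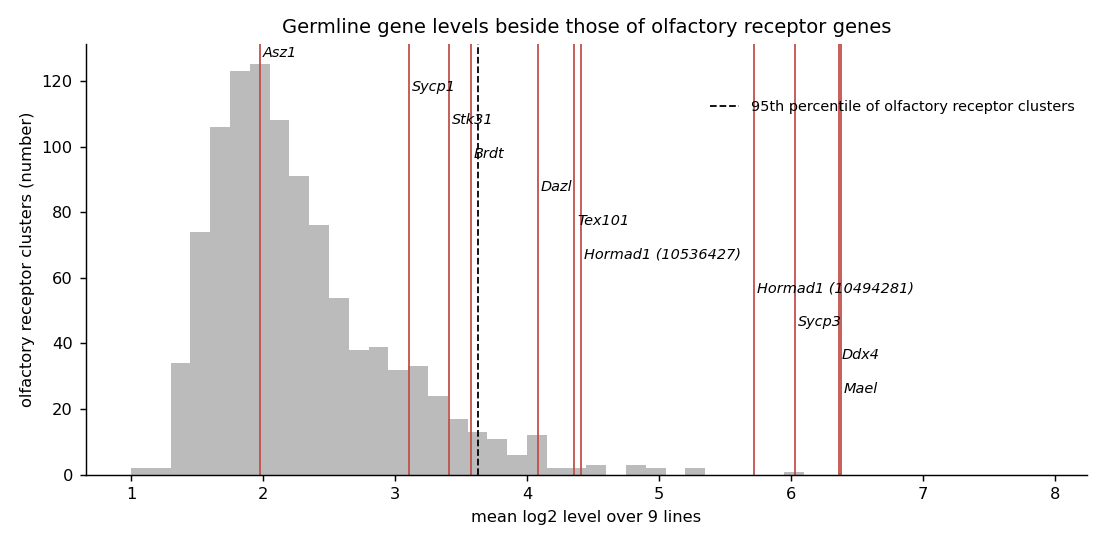
Mean log2 level over the 9 lines of 1035 olfactory receptor clusters (bars, number of clusters on the vertical axis) and of the 11 germline clusters (vertical lines, labelled). The dashed line is the 95th percentile of the olfactory receptor clusters at 3.63, and 7 germline clusters lie to the right of it.

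Pou5f1, which defines pluripotent cells, was at 10.07, 10.16 and 10.08 in mESCWM lines, 10.30, 10.10 and 10.18 in mESCKAA lines, and 10.43, 10.34 and 10.31 in mESCFB lines. It was high in all 9 lines, and lower in every mESCWM line than in every mESCFB line (difference -0.26, limma unadjusted p = 0.00913, adjusted p = 0.819). Nanog, another pluripotency factor, was at 8.52 to 10.35 and highest in WM2 and FB2. The mean of the 9 pluripotency markers was also highest in WM2 (8.82) and FB2 (8.69), against 8.19 to 8.52 in the other lines, and its part in the levels of the germline genes was not tested. The mean level of the 8 feeder fibroblast markers was 4.40 to 4.79 per line: Postn, Lum and Dcn lay within the background range in every line, the collagen genes Col1a1, Col1a2 and Col3a1 at 4.34 to 5.32 and Thy1 at 5.71 to 6.62. The actin gene Acta2, also on this list, was at 8.87, 9.82 and 9.34 in mESCWM lines, 8.56, 8.88 and 8.67 in mESCKAA lines, and 7.87, 8.31 and 8.56 in mESCFB lines. Every mESCWM line lay above every mESCFB line, with WM2 the highest (difference 1.10, limma unadjusted p = 0.00179, adjusted p = 0.685), and the part of feeder cells in the levels of the germline genes was not tested. The mean of the 7 primordial germ cell markers was 5.68 to 6.23. That of the 6 primitive endoderm markers was 5.85 in FB1 and 6.20 in KAA1, against 4.77 to 5.18 in the other lines. The part of primitive endoderm cells in the levels of the germline genes was not tested. The Y-linked Eif2s3y was at 5.19 in WM3, 3.72 in KAA2 and 4.78 in FB1, and at 1.77 to 2.20 in the other 6 lines, although all lines are labelled female, so results were also computed without these 3 lines. These are bulk samples, in which fewer cells of a type and less RNA per cell cannot be told apart.

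Hormad1, which encodes a HORMA-domain protein of the meiotic chromosome axis, varied most of the 10 genes. Cluster 10536427 was at 4.03, 4.93 and 4.33 in mESCWM lines, 3.65, 3.75 and 3.77 in mESCKAA lines, and 4.71, 6.05 and 4.50 in mESCFB lines. The mESCKAA lines lay close together and below all other lines, FB2 was the highest, and WM2 was the highest of its group. The mESCKAA values lay just above the 95th percentile of the olfactory receptor clusters (3.63). WM1 and WM3 lay below their 99th percentile (4.43). How much of the mESCKAA level is background was therefore not settled. Mean levels were 3.72 ± 0.07 in mESCKAA and 5.08 ± 0.84 in mESCFB (SD, n = 3 each), a difference of -1.36 (SE 0.381, 95% interval -2.23 to -0.49). By the rank product, which is the test named in the study's methods, it fell in mESCKAA, with a percentage of false positives (pfp) of 0.005, and the test called 28 of all clusters lower (0.12%) and 3 higher (0.0128%). Hormad1 is not among the genes that the study lists as different in this comparison. By limma it did not pass (unadjusted p = 0.00645, Benjamini-Hochberg adjusted p = 0.918 over 23410 clusters), and the exact permutation test gave p = 0.1, the smallest that 3 against 3 lines allow. Without FB2 the difference was -0.88 and the rank product no longer called it (pfp 0.356), nor did it without FB3 (pfp 0.43) or without the 3 lines with raised Eif2s3y (pfp 0.064, difference -1.56).

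Compared with mESCFB, cluster 10536427 averaged 4.43 ± 0.45 in mESCWM against 5.08 ± 0.84 (SD, n = 3 each), a difference of -0.65 (SE 0.381, 95% interval -1.52 to 0.22, limma adjusted p = 0.823) with overlapping groups. Without FB2 this difference was -0.17. All 3 mESCWM lines lay above all 3 mESCKAA lines, by 0.71 on average (SE 0.381, 95% interval -0.16 to 1.58, limma adjusted p = 0.785, exact permutation p = 0.1), and by 0.46 without WM2. Across all clusters, 4.03% had every mESCWM line above every mESCKAA line, and 3.7% had every mESCKAA line below every mESCFB line.

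The other Hormad1 cluster, 10494281, gave a different picture between groups. It was at 5.42, 6.52 and 5.79 in mESCWM lines, 5.63, 5.44 and 5.36 in mESCKAA lines, and 5.28, 6.45 and 5.59 in mESCFB lines. WM2 and FB2 stood above the remaining 7 lines, and all 3 groups overlapped. The difference of mESCKAA from mESCFB was -0.30 (SE 0.335, 95% interval -1.06 to 0.47), that of mESCWM from mESCFB 0.14, and that of mESCWM from mESCKAA 0.43. The 2 clusters correlated over the 9 lines with r = 0.735 (rho = 0.383), a description that rests largely on FB2 and WM2. Array identifiers mostly follow genome order, since 91.6% of clusters lie on the chromosome of both of their neighbours by number. Cluster 10494281 has 9 of 10 neighbours on chromosome 3, where Hormad1 lies, while all 10 neighbours of cluster 10536427 lie on chromosome 6. Whether the second cluster reads Hormad1 transcripts was therefore not settled here, and the call of the rank product belongs to that cluster alone.

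**Figure D2:**
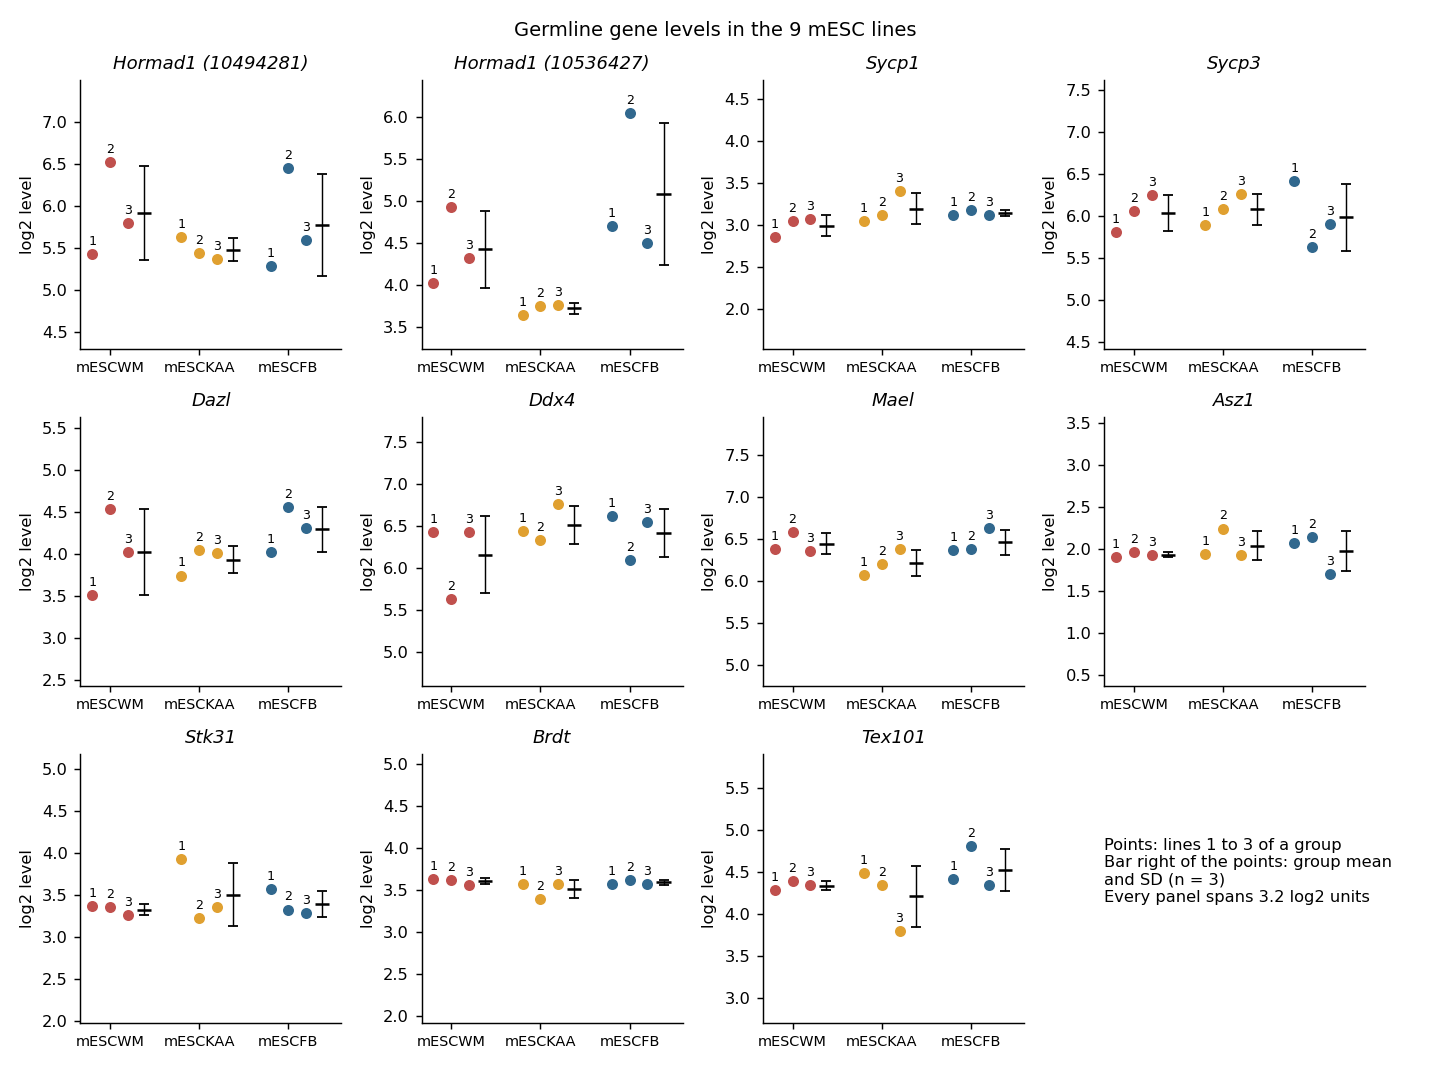
Log2 level of the 11 germline clusters in each line (points, numbered 1 to 3 within mESCWM, mESCKAA and mESCFB from left to right), with the group mean and SD to the right of the points (n = 3). Every panel spans the same number of log2 units, and in the Hormad1 cluster 10536427 the 3 mESCKAA lines lie below all others.

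Of the synaptonemal complex genes, Sycp3, whose product forms the lateral elements along the axes of meiotic chromosomes, was at 5.81, 6.05 and 6.24 in mESCWM lines, 5.89, 6.08 and 6.26 in mESCKAA lines, and 6.41, 5.63 and 5.90 in mESCFB lines. FB1 was the highest and FB2 the lowest, so the mESCFB lines enclosed all the others, and 2.91% of the variance over the 9 lines lay between groups. Sycp1, which encodes the transverse filament of the complex, was at 2.85, 3.05 and 3.07 in mESCWM lines, 3.05, 3.12 and 3.40 in mESCKAA lines, and 3.12, 3.18 and 3.12 in mESCFB lines. Each mESCWM line was below each mESCFB line, with a difference of -0.15 (limma unadjusted p = 0.190, exact permutation p = 0.1), at levels within the background, and 4.55% of all clusters were separated in this way.

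Among the RNA-binding and piRNA genes, Dazl, which binds and promotes translation of germ cell mRNAs, was at 3.51, 4.53 and 4.02 in mESCWM lines, 3.74, 4.04 and 4.01 in mESCKAA lines, and 4.02, 4.55 and 4.30 in mESCFB lines. WM1 lay below the 95th percentile of the olfactory receptor clusters (3.63), and only FB2 and WM2 lay above their 99th percentile (4.43). How much of the Dazl level is background was therefore not settled. FB2 and WM2 were again the highest, and the groups overlapped (mESCKAA minus mESCFB -0.36, SE 0.242, 95% interval -0.92 to 0.19). Ddx4, the RNA helicase also known as Vasa, ran the other way: it was at 6.42, 5.63 and 6.42 in mESCWM lines, 6.44, 6.33 and 6.76 in mESCKAA lines, and 6.62, 6.09 and 6.54 in mESCFB lines. WM2 was the lowest and FB2 the next lowest. Mael, which encodes the piRNA pathway protein Maelstrom, was at 6.39, 6.59 and 6.36 in mESCWM lines, 6.07, 6.21 and 6.38 in mESCKAA lines, and 6.37, 6.38 and 6.64 in mESCFB lines. The mESCKAA lines were low in Mael but overlapped the others at their upper end, with differences of -0.24 from mESCFB (SE 0.115, 95% interval -0.51 to 0.02, limma unadjusted p = 0.0652) and, for mESCWM over mESCKAA, of 0.23 (limma unadjusted p = 0.0806). Asz1, a germ granule protein of the piRNA pathway, stayed between 1.70 and 2.24 in all lines, at background, with overlapping groups.

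Tex101, a cell surface glycoprotein of germ cells, was at 4.28, 4.39 and 4.34 in mESCWM lines, 4.49, 4.34 and 3.80 in mESCKAA lines, and 4.42, 4.81 and 4.34 in mESCFB lines, with FB2 the highest and KAA3 the lowest. In Tex101, only KAA1 and FB2 lay above the 99th percentile of the olfactory receptor clusters (4.43). Stk31, a Tudor-domain protein kinase of germ cells, lay between 3.23 and 3.57 in 8 lines and at 3.93 in KAA1. Brdt, the testis-specific bromodomain protein that reads acetylated histones, lay between 3.40 and 3.64 in all lines. Its SD of 0.0703 was at the 8.58th percentile of all clusters, whereas both Hormad1 clusters (0.461 and 0.760) were above the 95th percentile of 0.376. The median SD of all clusters was 0.162, and 8 of the 11 members lay above it.

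Across the 11 clusters, limma called none in any of the 3 comparisons, and it called 0 of all 23410 clusters (0% in each). At an unadjusted p under 0.05 there was 1 member for mESCKAA against mESCFB (the Hormad1 cluster 10536427, against 4.81% of all clusters, or 2.08% in its direction), and 0 for mESCWM against mESCFB (5.89%) and for mESCWM against mESCKAA (6.29%). The rank product called the same cluster lower in mESCKAA and no member in the other 2 comparisons, in which it called 2 clusters higher (0.00854%) and 19 lower (0.0812%) for mESCWM against mESCFB, and 58 higher (0.248%) and 6 lower (0.0256%) for mESCWM against mESCKAA. For mESCKAA against mESCFB, 5 of 11 members had a difference above 0, against 52.4% of all clusters, and the median difference was -0.074, against 0.0067. For mESCWM against mESCFB, these were 3 of 11 against 51.6%, and -0.072 against 0.0046. For mESCWM against mESCKAA, they were 6 of 11 against 47.8%, and 0.092 against -0.0068. In groups that did not overlap, the mESCKAA lines were lower than the mESCFB lines for 1 member (3.7% of all clusters) and higher for 0 (4.38%), the mESCWM lines lower than the mESCFB lines for 1 (4.55%) and higher for 0 (3.58%), and the mESCWM lines higher than the mESCKAA lines for 1 (4.03%) and lower for 0 (4.63%). The 3 comparisons share lines, each group entering 2 of them.

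**Figure D3:**
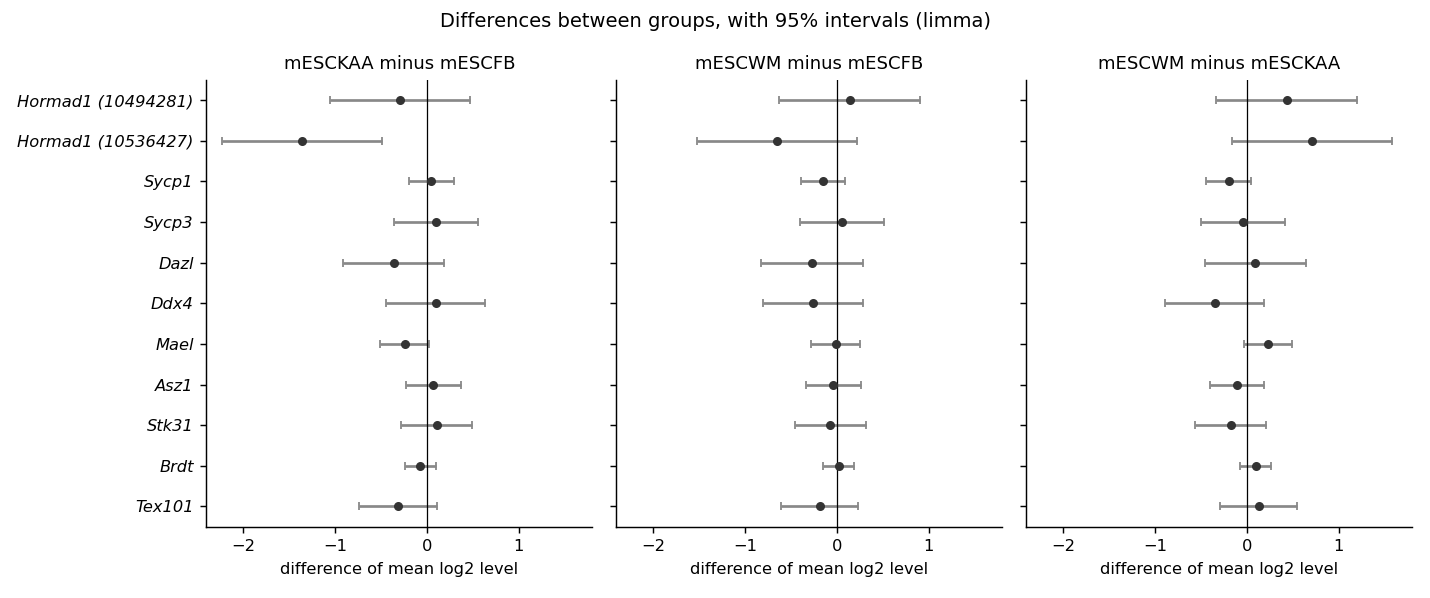
Differences of mean log2 level with 95% limma intervals for the 11 germline clusters in the 3 comparisons (n = 3 lines per group). Only the interval of the Hormad1 cluster 10536427 for mESCKAA minus mESCFB, -2.23 to -0.49, lies clear of 0.

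The members also varied between lines of the same group. The share of variance between groups had a median of 23.1% over the members, against 24.5% over all clusters, and was highest for the Hormad1 cluster 10536427 (60.3%). FB2 and WM2 were the 2 highest lines in Dazl and in both Hormad1 clusters, and the 2 lowest in Ddx4. Both carry the line number 2. KAA2 carries it too, but was not raised in cluster 10536427 (3.75) or 10494281 (5.44). Within mESCKAA, KAA2 was the highest line in Dazl (4.04) and the lowest in Ddx4 (6.33), by small margins. Over all clusters, the deviations of FB2 and WM2 from their group means correlated with r = 0.229. The labels do not say what a line number marks, and its part in these levels was not tested. Over the 9 lines, Dazl correlated with cluster 10536427 (r = 0.752, rho = 0.733) and with cluster 10494281 (r = 0.745), while Ddx4 ran against cluster 10494281 (r = -0.878, rho = -0.770). The 55 pairs of members had r on both sides of 0: the median was 0.046 and the mean 0.0234, against a mean of 0.0018 over all pairs of clusters, with 6 pairs above 0.5 and 7 below -0.5. All pairs share the same arrays, and these values are descriptions without a test. Part of the levels of Dazl and cluster 10536427 may be background, as given above.

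**Figure D4:**
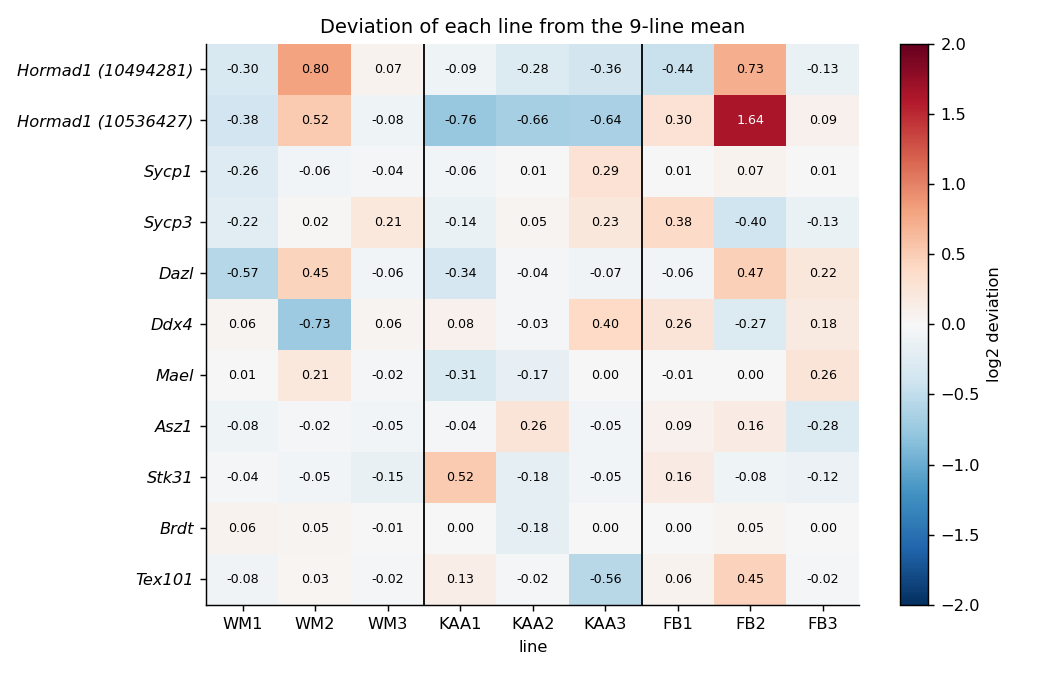
Deviation of each line from the mean of the 9 lines on the log2 scale (colour), for the 11 germline clusters (rows) and the lines of mESCWM, mESCKAA and mESCFB (columns, left to right). Hormad1 and Dazl are high in WM2 and FB2, where Ddx4 is low.

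The clusters with the profile most like Hormad1 cluster 10536427 over the 9 lines were those of the transcript Platr25 (r = 0.953), the radial spoke gene Rsph9 (r = 0.937), Fam72a (r = 0.931), the intraflagellar transport gene Ift22 (r = 0.929) and Mia (r = 0.925). Of all clusters, 1.06% reached an r above 0.8 with it. They were chosen for this likeness, so their profiles are no further result. Platr25, at 1.65 to 2.59, lay within the range of the olfactory receptor genes.

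Other germline genes were counted over lists of known members. None of the 23 measured meiotic chromosome genes, 20 piRNA and germ granule genes, 17 X-linked germline genes, 18 post-meiotic sperm genes or 16 oocyte genes passed limma's adjusted threshold in any comparison. Among the X-linked germline genes, the homeobox gene Esx1 had the smallest p, at 5.45, 4.53 and 4.98 in mESCWM lines, 5.59, 5.77 and 5.67 in mESCKAA lines, and 5.47, 5.45 and 5.66 in mESCFB lines. Every mESCWM line lay below every mESCKAA line, with WM2 the lowest, which is not the order seen in Hormad1 (difference -0.69, limma unadjusted p = 0.00727, adjusted p = 0.765). Pnma5, also X-linked, was at 3.84, 5.75 and 4.57 in mESCWM lines, 3.53, 3.98 and 3.73 in mESCKAA lines, and 4.58, 6.66 and 6.01 in mESCFB lines. The mESCKAA lines lay below all mESCFB lines (difference -2.01, limma unadjusted p = 0.00732, adjusted p = 0.918), and FB2 was the highest line, as in Hormad1 cluster 10536427. The study lists Pnma5 as lower in mESCKAA than in mESCFB. That listing comes from the same arrays, and the gene lists used here were chosen with earlier results known. The match is therefore no independent result. Tdrd12, a Tudor-domain gene of the piRNA pathway, was at 6.62, 6.95 and 6.88 in mESCWM lines, 6.00, 6.17 and 6.36 in mESCKAA lines, and 6.61, 7.46 and 6.28 in mESCFB lines. Again FB2 was the highest. The mESCWM lines lay above the mESCKAA lines without overlap (difference 0.64, limma unadjusted p = 0.0400, adjusted p = 0.771), and the mESCKAA and mESCFB lines overlapped (difference -0.61, limma unadjusted p = 0.0482). Dnd1, an RNA-binding protein of primordial germ cells, was at 5.33, 5.23 and 5.38 in mESCWM lines, 5.03, 5.18 and 5.10 in mESCKAA lines, and 5.02, 4.85 and 4.62 in mESCFB lines. Both IVF groups lay above all mESCFB lines, by 0.48 in mESCWM and 0.27 in mESCKAA, and neither difference passed limma's adjusted threshold (adjusted p = 0.685 and 0.918). Zp3, a gene of the oocyte coat, was at 5.03, 4.78 and 5.53 in mESCKAA lines, against 5.46, 6.38 and 6.02 in mESCFB lines (difference -0.84, limma unadjusted p = 0.0189), and the groups overlapped. Of the meiotic chromosome genes, Meioc, which is needed for meiotic prophase, differed by 0.59 between mESCWM and mESCKAA lines (limma unadjusted p = 0.0394), and Meiob, a meiotic single-strand DNA binding protein, by 0.24 between mESCWM and mESCFB lines (limma unadjusted p = 0.0395) at levels within the background, both with overlapping groups. Of the sperm genes, Akap4 of the sperm tail had the smallest p, with a difference of 0.20 between mESCKAA and mESCFB lines (limma unadjusted p = 0.0562), also within the background.

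The median difference of the X-linked germline genes was -0.114 for mESCKAA against mESCFB, with 3 of 17 above 0, and -0.075 for mESCWM against mESCFB, with 6 of 17 above 0. That of the meiotic chromosome genes was -0.0020 (11 of 23 above 0) and 0.054 (14 of 23), and that of the piRNA and germ granule genes -0.107 (7 of 20) and 0.037 (12 of 20). Of all clusters, 52.4% and 51.6% were above 0. The X-linked level of the lines, given further on, was highest in FB2 and FB3, and its part in the values of the X-linked germline genes was not tested.

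The genes that write and erase DNA methylation were examined next, and 9 of the 10 listed were measured. None passed limma's adjusted threshold. Dnmt3l, the cofactor of the de novo methyltransferases, was at 8.38, 8.80 and 9.41 in mESCWM lines, 9.61, 8.65 and 8.89 in mESCKAA lines, and 9.68, 9.66 and 9.43 in mESCFB lines. The mESCWM lines lay below the mESCFB lines without overlap, though WM3 came close to FB3 (difference -0.73, limma unadjusted p = 0.0364, adjusted p = 0.819). Prdm14, which represses the de novo methyltransferase genes in mESC, was at 5.65 in WM2 and 5.03 in FB2 and at 3.90 to 4.28 in the other lines, so the 2 lines with high Dazl and Hormad1 were also those with high Prdm14. Dnmt3b, a de novo methyltransferase, was lowest in WM2 at 7.18 and was at 7.82 to 8.44 in the other lines, with 7.83 in FB2. FB2 and WM2 also share a line number with KAA2, where Prdm14 was at 4.28. The part of Prdm14, Dnmt3b or that number in the levels of the germline genes was not tested. Dnmt3a was at 7.68 to 9.19, the maintenance methyltransferase Dnmt1 at 7.85 to 8.25 and its partner Uhrf1 at 8.94 to 9.33, with overlapping groups. Of the demethylating oxygenases, Tet1 was at 7.35 to 8.56, Tet2 at 4.53 to 5.29 and Tet3 at 4.89 to 5.27, also with overlapping groups.

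Of the 18 genes of PRC1.6 and the H3K9 methylation machinery, 0 passed limma's adjusted threshold, and at an unadjusted p under 0.05 there were 2 lower in mESCKAA and 3 lower in mESCWM than in mESCFB, and none higher, against 4.81% and 5.89% of all clusters in either direction (2.08% and 3.17% lower). The list averaged 7.76 to 8.05 per line, above the median of 4.67 over all clusters. Of the 11705 clusters at or above the median level, 390 were lower at this threshold in mESCKAA and 590 in mESCWM than in mESCFB. Of these 11705, 39.6% and 47.2% had a difference above 0, against 2 and 5 of the 18 listed genes. The median difference of the list was -0.120 in mESCKAA and -0.095 in mESCWM, against -0.029 and -0.0089 over the 11705 clusters. This lean of the list was not tested. The PRC1.6 subunits L3mbtl2 and Wdr5 differed by -0.28 and -0.23 in mESCKAA, and Wdr5, Max and Tfdp1 (which encodes DP1) by -0.26, -0.23 and -0.20 in mESCWM. Mean levels of Max were 9.11 ± 0.15 in mESCWM and 9.34 ± 0.04 in mESCFB (SD, n = 3 each). These genes were picked by their p, so their values are a description.

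Because a second active X chromosome goes with low DNA methylation in mESC, the X-linked level of each line was set beside the members. It is the median deviation of 351 X-linked clusters from the 9-line mean minus that of 10553 autosomal clusters. It was -0.014, -0.046 and -0.085 in mESCWM lines, -0.047, -0.098 and -0.055 in mESCKAA lines, and -0.047, 0.295 and 0.137 in mESCFB lines. FB2 and FB3 stood above all other lines, and Xist was also highest in FB2 (3.95, against 2.53 to 3.13 in the other lines). WM2, in contrast, was not raised in X-linked level.

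Over the 9 lines, the Hormad1 cluster 10536427 had r = 0.773 with the X-linked level (permutation p = 0.0314, adjusted p = 0.173 over the 11 relations) and rho = 0.567 (permutation p = 0.121). Without FB2 and FB3 the r was 0.170, so the relation rests on these 2 lines, both of which are mESCFB. Sycp3 ran the other way, with r = -0.711 (exact permutation p = 0.0242, adjusted p = 0.173), rho = -0.75 (exact permutation p = 0.0255) and r = -0.421 without FB2 and FB3. Cluster 10494281 of Hormad1 had r = 0.488, Dazl 0.535 and Tex101 0.577, with exact permutation p = 0.139, 0.136 and 0.156, and without FB2 and FB3 their r was -0.0025, -0.380 and -0.016. No relation passed the Benjamini-Hochberg adjustment over 11 in Pearson's r or in Spearman's rho. Brdt had the smallest p for rho (rho = 0.796, exact permutation p = 0.0124, adjusted p = 0.137), at levels within the background. Its r was 0.403, and 0.829 without FB2 and FB3. After quantile normalization its rho was 0.467 (permutation p = 0.21). Within groups, 3 lines are too few for a correlation. FB1, KAA2 and WM3, the lines with raised Eif2s3y, had X-linked levels of -0.047, -0.098 and -0.085. They were kept in these relations, which were not computed without them.

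**Figure D5:**
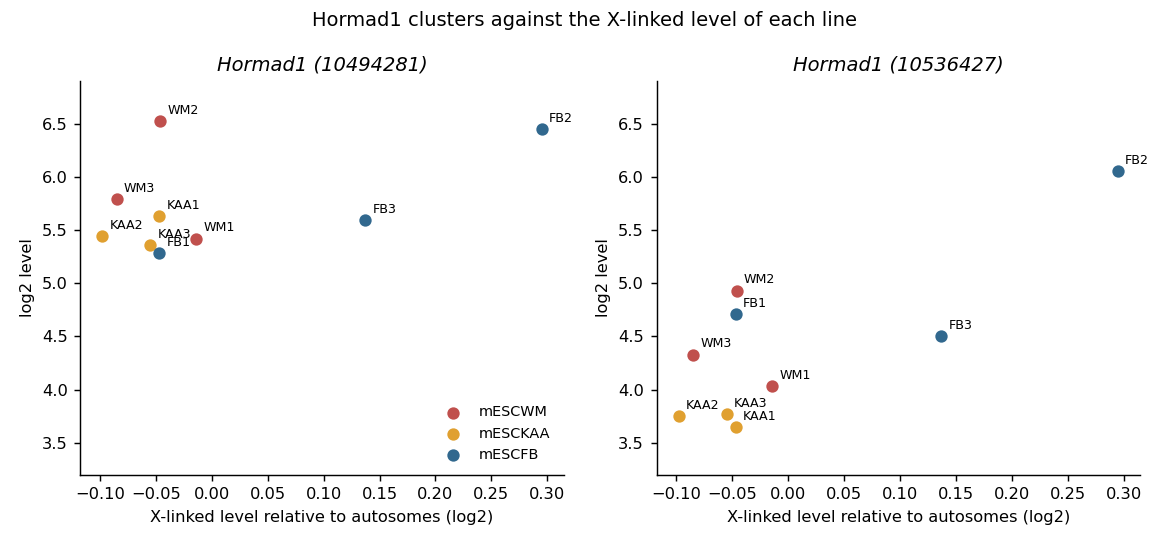
Log2 level of the Hormad1 clusters 10536427 and 10494281 (vertical axes) against the X-linked level of each line (horizontal axis, log2 units), with points coloured by group and labelled by line. FB2 and FB3, at 0.295 and 0.137, lie apart to the right, and WM2 is high in Hormad1 at an X-linked level of -0.046.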

How the data were processed

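The authors hybridised total RNA of 9 lines, 1 array each, and normalized the arrays by RMA in affylmGUI; the submitters' processing notes name Affymetrix Expression Console and R 3.1.0. The deposited values are log2 levels per transcript cluster, running from 0.556 to 13.3, with medians over the tested clusters of 4.64 to 4.70 per line. The genome build is not given in the sources used here. Of 35556 clusters, the 23410 with an assigned gene were tested, with gene names from the platform annotation.

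Group means were compared with limma 3.58.1 in R 4.3.3 (all 9 lines, 1 mean per group, two-sided, Benjamini-Hochberg over 23410 clusters, threshold 0.05). The rank product, which the methods name without a threshold, was run over the 9 pairwise differences of 2 groups with 100 permutations within arrays and a pfp under 0.05. Both were tested on simulated data. Single clusters also had exact permutation tests. Lines of a group were taken as replicates, since each came from its own blastocyst. How precise a group mean can be depends on the 3 arrays behind it.

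The members and all gene lists were chosen with earlier results of these data known. Named are all members, up to 4 genes of each list among those with the smallest p, the methylation genes, cell type markers and the 5 clusters most like Hormad1 10536427. Alternatives were quantile normalization, median centring, other cluster sets and limma settings, a replicate block, leaving out each line, and leaving out FB1, KAA2 and WM3 together. Python 3.11.15, numpy 2.4.6, pandas 2.3.3, scipy 1.17.1 and matplotlib 3.10.9 were used.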

Additional observations from a re-analysis of the deposited data

How the results depend on the processing

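The call of the Hormad1 cluster 10536427 by the rank product for mESCKAA against mESCFB depended on the setting: 1 member was called with a pfp under 0.1 and after quantile normalization, but 0 with all clusters of the arrays (pfp 0.0917) and 0 without FB1, KAA2 and WM3 (pfp 0.064). Leaving out 1 line at a time gave 0 to 1 called members, with 0 without FB2 or FB3. Its difference ran from -1.66 to -0.88 over these fits, that of mESCWM from mESCFB from -0.95 to -0.17 and that of mESCWM from mESCKAA from 0.46 to 0.91. With limma, no member passed the adjusted threshold in any setting run. The labels do not say what a line number marks, so the lines were not treated as paired. In the data, 5 of 9 same-numbered pairs correlated above 0.1 (range -0.0134 to 0.328), among them all 3 pairs of number 2 (0.147, 0.229 and 0.115). Of the 9 lines, 8 correlated best with a line of their own number among the lines of the other groups. This is a hint from the data, not from the design, of a structure that the main comparisons leave out. With the replicate block, 2, 1 and 2 members had an unadjusted p under 0.05 for mESCKAA against mESCFB, mESCWM against mESCFB and mESCWM against mESCKAA, against 1, 0 and 0 without it, and 0 passed after adjustment in each. Cluster 10536427 was among them each time, with a limma unadjusted p of 0.00172, 0.0495 and 0.0364.

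Small differences changed sign. After quantile normalization, Sycp1 was at -0.0033 for mESCKAA against mESCFB, Mael at 0.0019 for mESCWM against mESCFB, and the r of Asz1 with the X-linked level at 0.030. Without FB1, KAA2 and WM3, the differences of mESCWM from mESCFB were -0.053 for Hormad1 cluster 10494281, 0.049 for Stk31 and 0.0099 for Asz1. Leaving out 1 line at a time, the difference of mESCKAA from mESCFB ran from -0.078 to 0.31 for Sycp3, -0.070 to 0.19 for Ddx4, -0.54 to 0.045 for Hormad1 cluster 10494281, -0.056 to 0.12 for Sycp1, -0.11 to 0.24 for Stk31 and -0.068 to 0.15 for Asz1. That of mESCWM from mESCFB ran from -0.087 to 0.073 for Mael, -0.12 to 0.27 for Sycp3, -0.42 to 0.0058 for Ddx4, -0.17 to 0.48 for Hormad1 cluster 10494281, -0.13 to 0.014 for Stk31 and -0.18 to 0.046 for Asz1. That of mESCWM from mESCKAA ran from -0.14 to 0.069 for Sycp3, -0.16 to 0.35 for Dazl, -0.31 to 0.034 for Stk31 and -0.077 to 0.27 for Tex101. The causes were not tested. When low clusters were dropped (mean under the median of the tested clusters), 4 member clusters were tested.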
